A study of Mus musculus with 3 samples.

Results

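Hspa5, Ddit3, Atf4, Xbp1, Trib3, Asns, Chac1, Herpud1 and Sesn2, 9 genes of the integrated stress response and of the unfolded protein response, were followed in single-cell RNA-Seq of B16-F10 tumors. They were chosen by symbol among the 32285 gene records of the count tables, a rule that uses no measured value. Ddit3 has 2 records, so the 9 symbols stand on 10 records; the second, whose 105 annotated exonic bases all lie within exons of the first, held 0 UMIs (unique molecular identifiers, each taken as 1 captured RNA molecule) in melanoma cells of every library, and Ddit3 below means the first.

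The tumors were grown from B16-F10 cells, a pigmented mouse melanoma line, in the skin of C57BL/6J mice aged 6 to 8 weeks. The 2 libraries labelled shMib2 replicate 1 and shMib2 replicate 2 came from tumors with different short hairpin RNAs against Mib2, which encodes an E3 ubiquitin ligase, and the library labelled shCtrl from tumors with a control hairpin. Each library pooled tumors of 3 mice, so the mice cannot be told apart. Melanoma cells were taken as barcodes with at least 5000 UMIs of which Dct and Pmel, both pigment genes, made up at least 0.5%; this gave 6554, 3933 and 8100 cells in shMib2 replicate 1, shMib2 replicate 2 and shCtrl, or 18587 of 27374 barcodes.

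Both responses meet in a few genes. Stress kinases phosphorylate the initiation factor eIF2, which slows translation in general and lets Atf4 messenger RNA be translated; ATF4 then switches on genes of amino acid supply and redox balance, and, if stress lasts, Ddit3. Misfolded protein in the endoplasmic reticulum (ER) activates one of these kinases and, through IRE1 and ATF6, the chaperone genes of the unfolded protein response. Messenger RNA levels of Atf4 and Xbp1 measure neither ATF4 translation nor Xbp1 splicing. Hspa5 encodes the main ER chaperone (BiP) and Herpud1 a membrane protein of ER-associated degradation. Xbp1, Atf4 and Ddit3 (CHOP) encode transcription factors. Asns makes asparagine, Chac1 degrades glutathione, Trib3 encodes a pseudokinase that binds ATF4 and CHOP, and Sesn2 encodes an inhibitor of the growth kinase mTORC1.

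The promoters of the members that held a textbook stress motif are shown first, with the motif in capitals, since these motifs are how the factors of both responses read DNA. RefSeq promoters (GRCm38.p6, 250 bases before to 50 bases after each start) were at hand for all 9 members. Motifs searched on both strands were TGATGNAA, read by C/EBP-ATF dimers, which occurred in 3.97% of 32851 promoters; the ER stress element, CCAAT, 9 bases of any kind and CCACG, in 0.119%; and the second ER stress element, ATTGG, any base and CCACG, in 0.0365%. Of the 9 promoters, 5 held a match. Hspa5 (chr2:34771840-34772139, plus strand) held the ER stress element, which begins 65 bases before the start. Herpud1 (chr8:94386179-94386478, plus strand) held TGATGNAA on the minus strand and the second ER stress element, 112 and 52 bases before the start. TGATGNAA stood in Asns (chr6:7693160-7693459, minus strand) 23 bases before the start, in Chac1 (chr2:119350992-119351291, plus strand) 193 bases before it, and in Trib3 (chr2:152344011-152344310, minus strand) 14 bases after it; in Chac1 and Trib3 the letters run on the strand opposite to the gene, so the capitals read TTNCATCA.
Hspa5: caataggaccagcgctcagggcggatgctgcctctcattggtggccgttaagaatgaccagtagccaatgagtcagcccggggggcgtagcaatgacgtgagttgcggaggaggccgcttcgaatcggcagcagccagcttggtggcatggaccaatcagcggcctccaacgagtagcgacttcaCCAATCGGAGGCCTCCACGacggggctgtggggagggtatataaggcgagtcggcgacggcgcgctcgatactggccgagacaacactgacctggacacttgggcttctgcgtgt
Herpud1: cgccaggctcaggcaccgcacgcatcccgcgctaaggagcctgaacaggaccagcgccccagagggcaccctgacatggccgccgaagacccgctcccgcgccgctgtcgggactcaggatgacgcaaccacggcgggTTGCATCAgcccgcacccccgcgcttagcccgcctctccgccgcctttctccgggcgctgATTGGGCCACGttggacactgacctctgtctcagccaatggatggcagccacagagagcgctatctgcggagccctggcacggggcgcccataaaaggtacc
Asns: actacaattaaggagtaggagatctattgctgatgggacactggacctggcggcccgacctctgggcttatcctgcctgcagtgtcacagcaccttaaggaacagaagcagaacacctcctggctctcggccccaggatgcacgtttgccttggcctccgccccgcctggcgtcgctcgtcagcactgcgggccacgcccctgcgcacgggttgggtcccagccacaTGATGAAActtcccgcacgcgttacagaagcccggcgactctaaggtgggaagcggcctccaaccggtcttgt
Chac1: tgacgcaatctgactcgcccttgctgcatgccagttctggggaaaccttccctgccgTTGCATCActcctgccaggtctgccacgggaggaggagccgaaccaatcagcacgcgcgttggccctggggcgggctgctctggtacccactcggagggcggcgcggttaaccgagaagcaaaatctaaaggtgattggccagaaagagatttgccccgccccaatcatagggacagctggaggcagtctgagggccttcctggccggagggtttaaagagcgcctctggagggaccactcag
Trib3: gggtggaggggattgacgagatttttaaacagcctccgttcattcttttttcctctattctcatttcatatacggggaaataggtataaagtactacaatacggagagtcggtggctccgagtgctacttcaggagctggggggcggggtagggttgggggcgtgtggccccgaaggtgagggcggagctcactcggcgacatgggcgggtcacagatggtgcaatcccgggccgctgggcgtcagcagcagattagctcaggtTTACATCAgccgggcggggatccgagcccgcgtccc
These letters were not found in the windows of Ddit3 (chr10:127290543-127290842), Atf4 (chr15:80254934-80255233), Xbp1 (chr11:5520391-5520690) and Sesn2 (chr4:132510407-132510706). A match is a description of the sequence and not evidence that a factor binds there.

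The libraries held 190904274, 203298455 and 243926188 UMIs (shMib2 replicate 1, shMib2 replicate 2 and shCtrl), with medians of 25479, 44530 and 27097 UMIs per melanoma cell. Pairs of libraries shared 20 to 30 barcodes, at most 0.318% of a library. Mib2 itself, the target, had 3.12 and 2.67 counts per 1000000 UMIs (CPM) in melanoma cells of the libraries labelled shMib2, against 2.49 CPM in shCtrl. Mib2 RNA was thus not lower in the libraries labelled shMib2, and groups are named by their labels throughout. In melanoma cells Dct, Pmel, Mlana, Tyrp1 and Tyr summed to 17519, 18684 and 18206 CPM (shMib2 replicate 1, shMib2 replicate 2 and shCtrl). Dct and Pmel define the gate, so their large part of this sum was set by the rule. Mlana, Tyrp1 and Tyr, which the rule does not use, averaged 1829, 3153 and 342 CPM over the libraries.

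Melanoma cells expressed all 9 members at levels that hardly differed between libraries. The ER chaperone Hspa5 was the most abundant, with 704 and 658 CPM in shMib2 replicates 1 and 2, against 665 CPM in shCtrl. Atf4 had 198 and 188 CPM, against 181 CPM in shCtrl, and its target Asns 117 and 117 CPM, against 122 CPM. CPM are set per molecule counted and not per length of RNA, so an order of levels between genes is an order of captured molecules.

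The other 6 members lay between 11.3 and 64.1 CPM. Xbp1 had 64.1 and 61.7 CPM in the libraries labelled shMib2, against 63.4 CPM in shCtrl, and Herpud1 57.7 and 54.0 CPM, against 54.2 CPM. Ddit3 had 55.8 and 54.4 CPM in those labelled shMib2, against 50.3 CPM, so that both shMib2 libraries lay above shCtrl. Trib3, with 31.1 and 28.8 CPM against 28.8 CPM, and Chac1, with 17.9 and 17.8 CPM against 17.7 CPM, were nearly level. Sesn2 differed most, with 13.3 and 13.0 CPM in the libraries labelled shMib2, against 11.3 CPM in shCtrl.

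**Figure D1:**
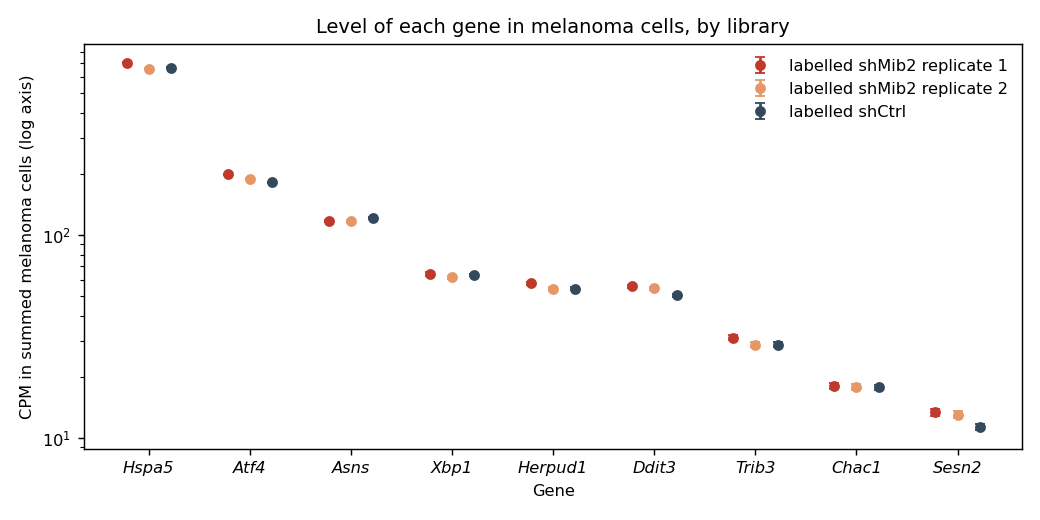
CPM (log axis) of each gene in summed melanoma cells, 1 point per library (shMib2 replicate 1, shMib2 replicate 2, shCtrl), with exact Poisson 95% intervals that cover counting error only. The points of a gene nearly coincide; the widest gap is that of Sesn2, at 13.3, 13.0 and 11.3 CPM.

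Whether these genes changed with the label was tested with edgeR's quasi-likelihood test on UMIs summed per library, over 16196 genes. No member was called at an adjusted p under 0.05, beside 260 calls among all genes, or 1.61%, of which 259 were higher in the libraries labelled shMib2 and 1 lower. An unadjusted p under 0.05 was found for 18.6% of all genes tested and for 1 of the 9 members, namely Sesn2, with a log2 fold change of 0.17 (SE 0.044, 95% interval 0.05 to 0.29, adjusted p = 0.176 by edgeR). With every cell thinned to 5000 UMIs, Sesn2 stood at 0.29 (0.08 to 0.50, adjusted p = 0.251 by edgeR) and Asns joined it at an unadjusted p under 0.05, with -0.14 (-0.27 to 0.00, adjusted p = 0.394 by edgeR). For Hspa5 the log2 fold change was -0.02 (95% interval -0.17 to 0.13), for Atf4 0.04 (-0.08 to 0.16) and for Ddit3 0.08 (-0.02 to 0.17). For Trib3 it was 0.00 (-0.13 to 0.14), for Chac1 -0.04 (-0.17 to 0.09) and for Herpud1 -0.01 (-0.12 to 0.10). Asns stood at -0.11 (-0.23 to 0.01) and Xbp1 at -0.06 (-0.15 to 0.03). TMM scaling, with factors of 1.03 and 0.995 in the libraries labelled shMib2, against 0.977 in shCtrl, lowers fold changes relative to CPM, and turns the sign of Hspa5, Chac1 and Herpud1, whose mean CPM ratios were 1.02, 1.01 and 1.03. The fit rests on 1 residual degree of freedom, with the lone shCtrl library assumed to vary like the others, so these intervals bound the change only under that assumption. The median log2 fold change was -0.01 over the members and 0.01 over all genes tested.

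The neighbouring pathways gave the same count of calls. Of the other regulators and outputs of the integrated stress response, 0 of 9 tested were called, and 3 had an unadjusted p under 0.05 (18.6% of all genes did), among them Nupr1 (log2 fold change -0.18, adjusted p = 0.155) and Atf3 (0.19, adjusted p = 0.208). None of 20 genes of amino acid synthesis and transport was called, with 7 of the 20 at an unadjusted p under 0.05, beside the same 18.6%; Psph, of serine synthesis, stood at -0.17 and Mthfd2, of mitochondrial folate metabolism, at -0.18. Of 12 tRNA synthetases, 14 ER chaperones and folding enzymes, 7 genes of eIF2, its kinases and its phosphatase, 3 ER stress sensors and 6 tested genes of ER-associated degradation, 0 were called, with 1, 2, 2, 1 and 3 at an unadjusted p under 0.05. Pdia6, an ER disulfide isomerase, stood at -0.20 and Canx, an ER lectin chaperone, at 0.14; Atf6 stood at 0.19, Syvn1, the ligase of ER-associated degradation, at 0.20 and Ppp1r15b, a subunit of the eIF2 phosphatase, at 0.24, none of them called by edgeR. The calls lay elsewhere. In the same fit 10 of 12 interferon response genes were called higher in the libraries labelled shMib2, among them Psmb8 of the immunoproteasome, at 18.8 and 19.3 CPM against 1.51 CPM in shCtrl. Of 12 immediate early and heat shock genes, 3 were called higher, namely Egr1, Fosb and Hspa1a, the last named after its value was seen and not separable with certainty from its near-identical neighbour Hspa1b. Hspa1a averaged only 0.58 CPM, and Hspa1b, at 15.8 CPM, was not called (adjusted p = 0.103 by edgeR). Marker lists of other cells also moved with the label in these cells: 6 fibroblast markers summed to 184 and 123 CPM in the libraries labelled shMib2, against 9.19 CPM in shCtrl, with none at 0 in any library, and 5 erythrocyte markers to 316 and 286 CPM, against 129 CPM; 7 T cell markers summed to 4.25 and 6.36 CPM, against 0.802 CPM. Their part in the values of the members was not tested.

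Within a library, by contrast, the members varied strongly from cell to cell. After thinning each melanoma cell to 5000 UMIs, so that depth was equal, the overdispersion (variance beyond Poisson counting, divided by the squared mean) averaged 4.09 for Chac1, 3.20 for Trib3 and 3.06 for Ddit3. At least 99.6% of 5382 genes with 20 CPM or more in every library lay below each of these, and the median of those genes was 0.14. Herpud1 (1.14), Sesn2 (0.98) and Asns (0.82) came next. Hspa5 (0.46), Atf4 (0.39) and Xbp1 (0.29) were the most even. In unthinned counts a single cell held up to 84 and 97 UMIs of Ddit3 in shMib2 replicates 1 and 2, against 45 in shCtrl, although a UMI of Ddit3 was found in no more than 60.0%, 72.0% and 61.6% of the cells.

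Across melanoma cells the 9 members fell into 2 groups that were alike in the 3 libraries. Pearson's r of ln(1 + UMIs per 10000) was computed within each library over its cells, which share one library and differ in depth, and is given as a description. Hspa5 and Xbp1 formed one group, with r of 0.39, 0.47 and 0.42 (shMib2 replicate 1, shMib2 replicate 2 and shCtrl). Trib3 and Chac1 led the other, with r of 0.54, 0.63 and 0.52, and Atf4, Asns, Herpud1, Ddit3 and Sesn2 joined them: their mean r with Trib3 was 0.42, 0.46, 0.47, 0.37 and 0.29. In cells thinned to 5000 UMIs, r was lower, at 0.16 on average for Hspa5 with Xbp1 and 0.23 for Trib3 with Chac1, and 0.16, 0.20, 0.18, 0.17 and 0.09 for Trib3 with Atf4, Asns, Herpud1, Ddit3 and Sesn2. Between the groups r was low in unthinned cells. Hspa5 had a mean r of -0.04 with Trib3, 0.00 with Chac1 and 0.01 with Asns. Xbp1 had small positive r in 3 of 3 libraries, with means of 0.06 with Trib3, 0.08 with Chac1 and 0.09 with each of Asns, Atf4 and Ddit3. The median gene had 0.01 with Xbp1. Herpud1 reached further than the rest, with 0.16 to Hspa5 and 0.15 to Xbp1, beside 0.48 to Chac1. Its promoter held both kinds of motif (above), while those of Xbp1, Atf4, Ddit3 and Sesn2 held none. A link between motifs and r was not tested.

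**Figure D2:**
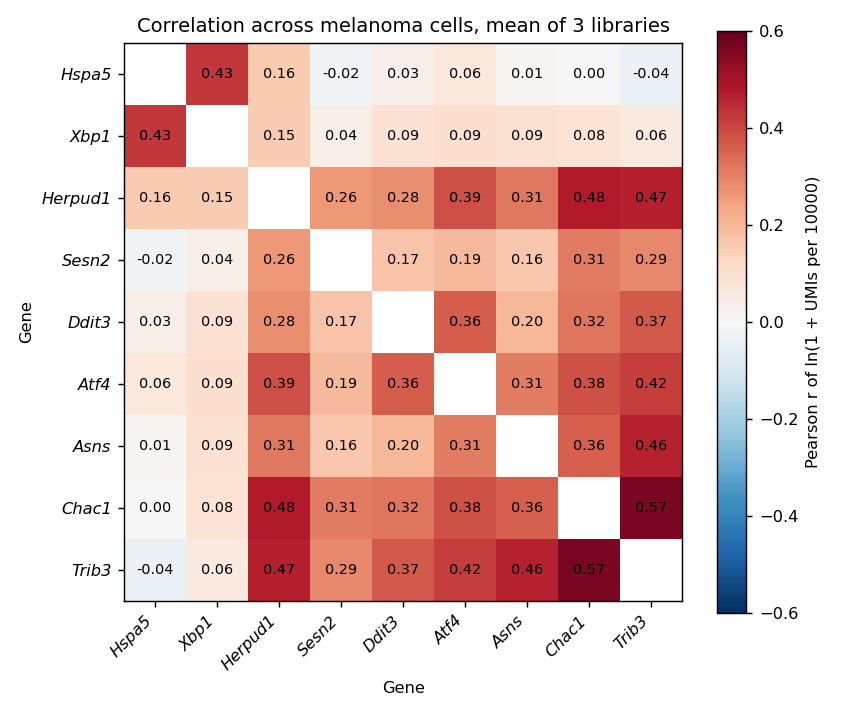
Pearson r across melanoma cells for each pair of the 9 genes, as the mean of the 3 libraries (rows and columns are genes, color is r). Hspa5 and Xbp1 (0.43) stand apart from the block around Trib3 and Chac1 (0.57), with Herpud1 joined to both.

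Shares of cells with a UMI, which do not depend on a log scale, gave the same picture at equal depth. Trib3 and Chac1 were detected together in 2.72%, 2.82% and 2.57% of cells thinned to 5000 UMIs (shMib2 replicate 1, shMib2 replicate 2 and shCtrl), which is 2.95, 3.31 and 2.81 times the share that independent detection would give. Chac1 and Sesn2 were found together 2.13, 2.55 and 1.92 times as often as that share, and Trib3 and Ddit3 1.60, 1.88 and 1.63 times. Hspa5 and Trib3 stood at 0.98, 0.97 and 0.96. Hspa5 and Xbp1 stood at 1.05, 1.06 and 1.05, where a ratio has little room, since Hspa5 was detected in 87.8% to 89.7% of the thinned cells.

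Cells with at least 2 Trib3 UMIs after thinning show how far the members moved together. There were 200, 108 and 195 such cells, or 3.05%, 2.75% and 2.41% of melanoma cells in shMib2 replicate 1, shMib2 replicate 2 and shCtrl, and their median UMI counts before thinning (25453, 40701 and 24446) were below those of cells with no Trib3 UMI (25518, 44777 and 27246). Chac1 had 87.0, 100.0 and 92.3 CPM in them, against 13.0, 12.7 and 13.4 CPM in cells with no Trib3 UMI, or 7.13-fold on average (6.67 to 7.85). Ddit3 followed with 4.09-fold (3.35 to 5.53), Herpud1 with 3.60-fold (3.10 to 4.27), Sesn2 with 2.88-fold (2.75 to 2.97), Asns with 2.78-fold (2.47 to 2.99) and Atf4 with 2.17-fold (2.04 to 2.27). Xbp1 (1.46-fold) and Hspa5 (1.39-fold) differed least. Hspa5 had 869, 885 and 1041 CPM in cells with at least 2 Trib3 UMIs, and 643, 708 and 630 CPM in cells with 1, against 705, 647 and 663 CPM in cells with none (shMib2 replicate 1, shMib2 replicate 2 and shCtrl). It thus stood higher at each step in shMib2 replicate 2, while in the other 2 libraries cells with 1 Trib3 UMI had less Hspa5 than cells with none. Read the other way, cells with at least 5 Hspa5 UMIs had 2.14-fold the Xbp1 (1.98 to 2.27) and 1.58-fold the Herpud1 (1.46 to 1.65) of cells with 0 or 1, while Trib3 (0.89-fold), Asns (1.02-fold) and Chac1 (1.04-fold) differed little.

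The genes most like each member separated in the same way. Over 5382 genes, Hspa5 was most like Manf, Pdia6, Calr, Hsp90b1 and Pdia3, all proteins of the ER, with mean r of 0.67, 0.65, 0.63, 0.63 and 0.59, where the median gene had 0.04. Xbp1 was most like Hspa5 (0.43), Manf (0.36), Selenos (0.31), Pdia6 (0.31) and Hsp90b1 (0.30). Trib3 was most like Nupr1, a small stress-induced chromatin protein (0.54), Cebpb, a transcription factor that dimerizes with ATF4 (0.51), Mthfd2 (0.49), the translation repressor Eif4ebp1 (0.49) and Herpud1 (0.47), where the median gene had -0.01. Asns was most like Nupr1 (0.57), Psph (0.57), Mthfd2 (0.55), Eif4ebp1 (0.53) and the glycyl-tRNA synthetase Gars (0.52). Chac1 was most like Trib3 (0.57), Herpud1 (0.48), Mthfd2 (0.44), Nupr1 (0.44) and Eif4ebp1 (0.39).

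The remaining members had weaker partners. Atf4 was most like Trib3 (0.42), Herpud1 (0.39), Mthfd2 (0.38), Ddit3 (0.36) and Nupr1 (0.36). Herpud1 was most like Trib3 (0.47), Atf4 (0.39), Mthfd2 (0.37), Nupr1 (0.36) and Asns (0.31). Ddit3 was most like Trib3 (0.37), Atf4 (0.36), Nupr1 (0.35), 2410006H16Rik (0.33) and Ddit4, an mTORC1 inhibitor (0.31). Sesn2 was most like Trib3 (0.29), Herpud1 (0.26), Nupr1 (0.21), Mthfd2 (0.20) and Atf4 (0.19).

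Several lists of pathway genes, though not all, went mainly to one member or the other. The top 5% of genes began at a mean r of 0.106 for Trib3 and 0.176 for Hspa5. Of 13 ER chaperones and folding enzymes with at least 20 CPM, 12 were among the 5% of genes most correlated with Hspa5 and 1 among the 5% most correlated with Trib3, with median r of 0.53 and -0.05, beside 0.04 and -0.01 over all 5382 genes. All 12 genes of amino acid synthesis and transport at that level were among the top 5% for Trib3 and 1 among those for Hspa5. For the tRNA synthetases 10 of 12 were in the top 5% for Trib3 and 0 for Hspa5; Wars and Mars stayed outside, at r of 0.00 and 0.07 with Trib3. Of 10 other regulators and outputs of the integrated stress response, 5 reached 20 CPM in every library, namely Nupr1, Cebpb, Atf5, Cebpg and Ddit4. All of these were in the top 5% for Trib3, at r of 0.54, 0.51, 0.43, 0.41 and 0.24. The rest of that list, Atf3 among them, lay below this level and had no r computed. Of 5 genes of ER-associated degradation at that level, 3 were in the top 5% for Hspa5 and 0 in that for Trib3. The list of eIF2 kinases and phosphatase subunits, which also holds Eif2s1, a subunit of eIF2 itself, did not divide so clearly. Of its 4 genes at that level, the 2 phosphatase subunits Ppp1r15a and Ppp1r15b were in the top 5% for Trib3. Eif2s1 was the 1 gene in that for Hspa5 (r of 0.21), and the kinase Eif2ak2 was in neither. The 1 ER stress sensor at that level, Atf6b, was in neither.

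**Figure D3:**
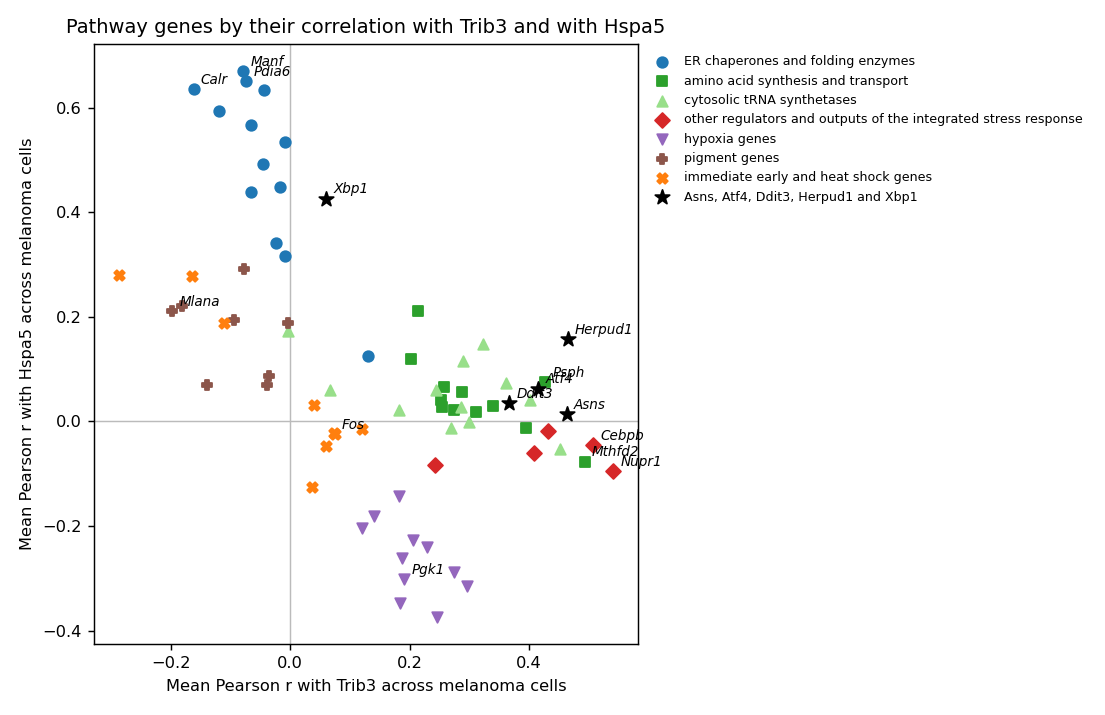
Each point is a gene of a pathway list with at least 20 CPM in melanoma cells, at its mean r with Trib3 (x axis) and with Hspa5 (y axis) over the 3 libraries. ER chaperones lie at the upper left (median r with Hspa5 0.53), genes of amino acid supply, tRNA charging and the integrated stress response at the right, and hypoxia genes at the lower right (median r 0.19 with Trib3 and -0.26 with Hspa5).

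Hypoxia genes divided the members most clearly. Melanoma cells of each library were ordered by the summed share of 12 hypoxia genes (such as Bnip3, Car9 and Ero1l, the ER oxidase) and cut into 5 bins of equal size. The sum is weighted to Pgk1 (2573 CPM) and Ldha (2397 CPM), beside 331, 212 and 399 CPM for Bnip3, Car9 and Ero1l. Pgk1 and Ldha had r of 0.19 and 0.12 with Trib3, and of -0.30 and -0.20 with Hspa5. Trib3 had 50.8, 46.8 and 49.1 CPM in the highest bin and 16.9, 16.3 and 13.6 CPM in the lowest (shMib2 replicate 1, shMib2 replicate 2 and shCtrl), a ratio of 3.17 ± 0.40 (SD, n = 3 libraries). Hspa5 ran the other way, with 525, 463 and 465 CPM in the highest bin and 883, 842 and 876 CPM in the lowest, a ratio of 0.56 ± 0.03. Chac1 (2.32), Ddit3 (1.94), Asns (1.73), Sesn2 (1.54) and Atf4 (1.32) went with Trib3 in 3 of 3 libraries. Xbp1 (0.77) went with Hspa5, and Herpud1 (1.13) lay between.

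**Figure D4:**
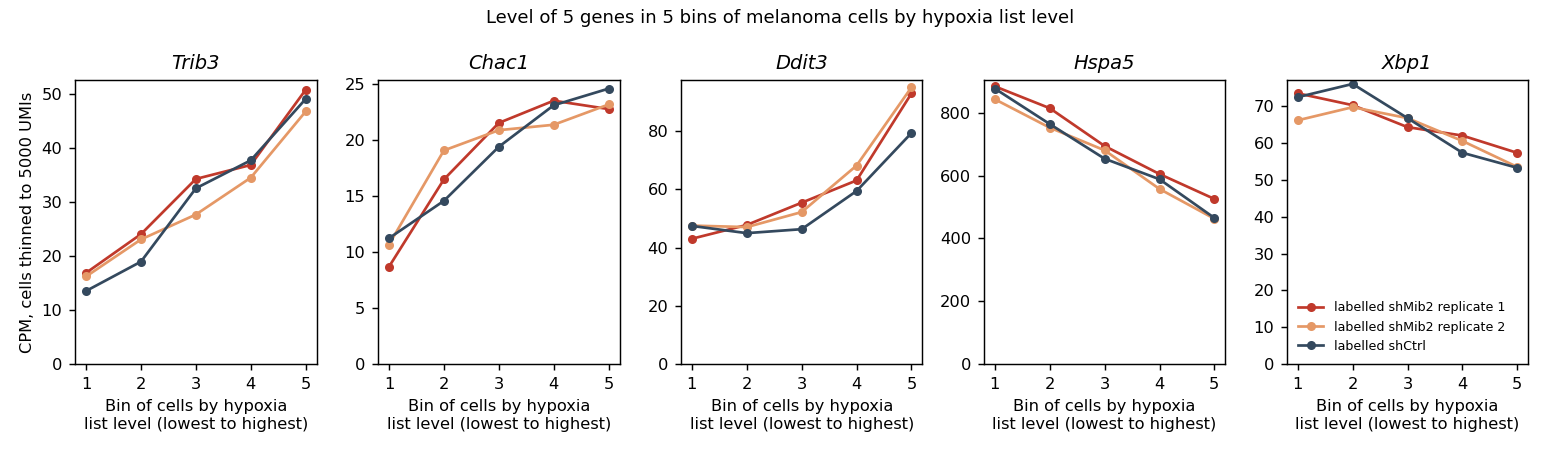
CPM in cells thinned to 5000 UMIs (y axes from 0) for Trib3, Chac1, Ddit3, Hspa5 and Xbp1, in 5 bins of melanoma cells from the lowest to the highest hypoxia list level (x axis), 1 line per library. Trib3 has 46.8 to 50.8 CPM in the highest bin and 13.6 to 16.9 CPM in the lowest, and Hspa5 463 to 525 CPM and 842 to 883 CPM.

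Pigment genes ran against Trib3 and with Hspa5, while immediate early and heat shock genes were mixed. From the lowest to the highest bin by pigment genes, Hspa5 (ratio 1.44) and Xbp1 (1.42) were higher in the highest bin, and Trib3 (0.48), Chac1 (0.68), Asns (0.76), Atf4 (0.76) and Ddit3 (0.77) lower, in 3 of 3 libraries. The pigment sum is weighted to Tyrp1 (3153 CPM) and Mlana (1829 CPM), which had r of -0.004 and -0.20 with Trib3. Along the summed immediate early and heat shock genes, Trib3 (0.36), Chac1 (0.46), Sesn2 (0.61) and Asns (0.63) were lower and Hspa5 (1.49) higher. Herpud1 (0.77) and Ddit3 (0.84) were lower by less, and Atf4 (1.05) and Xbp1 (1.08) nearly level. That sum is weighted to Hsp90aa1 (2580 CPM) and Hspa8 (2075 CPM), beside 266 CPM for Fos. Both had negative r with Trib3 (-0.17 and -0.29), whereas Fos, Fosb, Jun, Junb, Ier2 and Dnajb1 had r of 0.04 to 0.12. The median r of the list was 0.04 with Trib3 and -0.01 with Hspa5. In the bin highest in mitosis genes, Ddit3 (0.58), Chac1 (0.63), Trib3 (0.65), Xbp1 (0.76), Asns (0.77) and Hspa5 (0.92) were lower than in the lowest in 3 of 3 libraries, so that members of both groups were lower there, and Atf4 was nearly level (1.04). Along interferon response genes the members differed little: Ddit3 was at 1.25 and the other 8 between 0.87 and 1.07. The highest bin by mitochondrial transcripts, which also moves with cell quality, had more Trib3 (1.63), Sesn2 (1.62), Chac1 (1.39) and Herpud1 (1.37), while Xbp1 (1.11), Hspa5 (1.09), Asns (1.02) and Atf4 (0.97) differed less; the part of cell quality in these values was not tested. The lists share cells, so these orders are not independent of each other.

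Among clusters of melanoma cells, Trib3 and Hspa5 were highest in different clusters, though the 2 groups were not separate throughout. The members and pathway genes were left out of the clustering, except the pigment genes Tyr, Tyrp1 and Mlana, which are also markers. Trib3, Chac1 and Ddit3 were highest in the cluster led by Ero1l, Espn, Pgf, Hilpda and Nppb, where Trib3 averaged 59.7 CPM (55.2 to 62.9 over libraries). The cluster led by Kcnj13 and Cck had the least Trib3, 14.0 CPM (10.8 to 17.1). Hspa5 and Xbp1 were highest in the cluster led by Pmel, Dct and Mgll, with 826 CPM of Hspa5 (816 to 837), and lowest in one led by Ero1l, Espn, Hilpda, Cdkn1a and Top2a, with 455 CPM (435 to 470). In each of these pairs of clusters the ranges over libraries did not overlap. Atf4 (249 CPM) and Herpud1 (67.8 CPM) were highest in the same cluster in which Hspa5 was lowest. Asns (164 CPM) and Sesn2 (17.4 CPM) were highest in the cluster led by Ero1l, Car9 and Bnip3. Hspa5 was not low in that cluster, with 696, 591 and 654 CPM (shMib2 replicate 1, shMib2 replicate 2 and shCtrl).

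Immune and stromal cells outside the melanoma gate carried a different set of the members. Cells were clustered without the members, clusters were called by markers, and levels are given as a description, since classes come from the same counts. They were T cell-like (565, 827 and 82 cells in shMib2 replicate 1, shMib2 replicate 2 and shCtrl), NK cell-like (328, 497 and 47), B cell-like (78, 126 and 63), mononuclear phagocyte-like (160, 295 and 13), plasmacytoid dendritic cell-like (16, 22 and 10) and fibroblast-like (316, 308 and 25). At a finer clustering (resolution 2), clusters of 63 dendritic cells and 49 endothelial cells were called apart. The clusters called phagocytes and fibroblasts then went from 475 to 415 and from 724 to 674 cells, cells within the gate included. These classes may thus hold other cell types here. A cluster of low-UMI barcodes with 226, 885 and 234 cells stayed unnamed, and one led by hemoglobin genes was left out. Of its 140, 140 and 108 cells (shMib2 replicate 1, shMib2 replicate 2 and shCtrl), 104, 69 and 82 lay within the melanoma gate. In droplet data free RNA reaches every cell; from Dct and Pmel, the melanoma level of a gene would add at most 4.81% of itself in T cell-like and 9.63% in B cell-like cells, classes that should lack both genes.

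Xbp1 and Herpud1 were highest in plasmacytoid dendritic cell-like cells, an immune type that secretes large amounts of interferon. Xbp1 had 294, 452 and 356 CPM there (13, 46 and 9 UMIs in shMib2 replicate 1, shMib2 replicate 2 and shCtrl), 5.83 times its mean in melanoma cells, and the exact Poisson 95% intervals (157 to 503, 331 to 603 and 163 to 676) all lay above the melanoma levels. Herpud1 had 204, 275 and 396 CPM, 5.27 times the melanoma mean. Next in order for Xbp1 came phagocyte-like (137 CPM) and fibroblast-like cells (135 CPM), whose ranges over libraries overlapped, and then NK cell-like cells and melanoma cells (63.3 and 63.1 CPM), which also overlapped. T cell-like (45.6 CPM) and B cell-like cells (35.5 CPM) had the least.

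Hspa5 was highest in fibroblast-like cells, which secrete collagen, with 1150, 1068 and 2006 CPM, or 2.08 times the melanoma mean. The library labelled shCtrl stood apart in this class: its 25 cells also held 213 CPM of Ddit3, against 36.5 and 30.7 CPM in the libraries labelled shMib2, and 36.4 CPM of Trib3, against 6.39 and 5.20 CPM. Without that library the mean order in which fibroblast-like cells lead for Hspa5 rests on 1150 and 1068 CPM, and the next class, plasmacytoid dendritic cell-like cells, had 793 and 668 CPM in the same libraries. With so few cells in shCtrl, no test of this class was run. On average Hspa5 was lowest in B cell-like (349, 363 and 370 CPM) and T cell-like cells (427, 428 and 475 CPM), but in shCtrl NK cell-like (353 CPM) and phagocyte-like cells (315 CPM) lay lower still. Atf4 was broadly expressed, between 151 CPM in plasmacytoid dendritic cell-like and 286 CPM in NK cell-like cells on average, and most neighbours in that order overlapped.

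Trib3, Asns and Chac1 had their highest mean levels in melanoma cells, where only for Chac1 did no other class overlap them, with a count of 0 taken as 0 CPM. Chac1 had 0 UMIs in B cell-like and plasmacytoid dendritic cell-like cells. Their few UMIs do not place a limit of 3 counts below the melanoma level in every library, so a lower level there was not shown. Chac1 had 17.9, 17.8 and 17.7 CPM in melanoma cells, and 0 UMIs in NK cell-like cells of every library, where 3 counts would be 5.83, 2.25 and 36.5 CPM (shMib2 replicate 1, shMib2 replicate 2 and shCtrl); only in the first 2 does depth place the limit below the melanoma level. In T cell-like cells Trib3 had 3, 3 and 0 UMIs, or 2.38, 1.01 and 0 CPM, where melanoma RNA alone would give 1.33, 0.72 and 1.38 CPM, so it was not detectable above free RNA. Asns had 23.8, 17.5 and 39.0 CPM in T cell-like cells, above the 4.98, 2.93 and 5.85 CPM that free RNA would give, and 117, 117 and 122 CPM in melanoma cells. Fibroblast-like cells held Asns at 51.4, 48.0 and 120 CPM, the range of which reached that of melanoma cells. Trib3 did so too, with 6.39, 5.20 and 36.4 CPM in fibroblast-like cells, the last from 7 UMIs in shCtrl, against 31.1, 28.8 and 28.8 CPM in melanoma cells. Sesn2 was low everywhere (3.62 to 19.7 CPM on average), with overlap between nearly all classes.

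**Figure D5:**
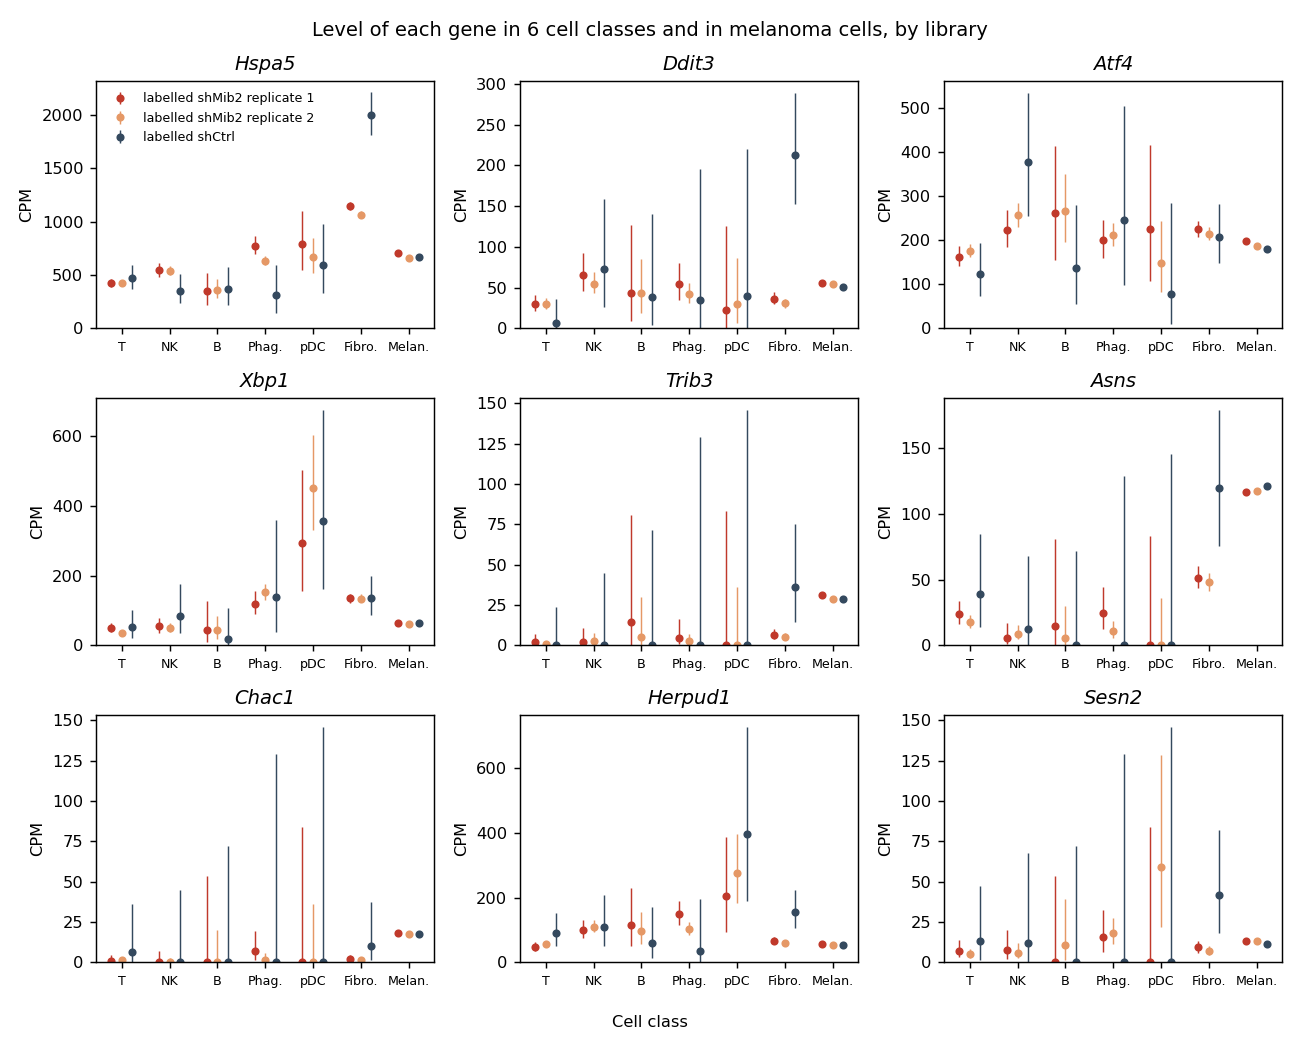
CPM of each gene (y axes from 0) in T cell-like, NK cell-like, B cell-like, phagocyte-like, plasmacytoid dendritic cell-like (pDC) and fibroblast-like cells and in melanoma cells, 1 point per library (shMib2 replicate 1, shMib2 replicate 2, shCtrl) with exact Poisson 95% intervals. Xbp1 and Herpud1 stand highest in pDC-like cells (means 367 and 292 CPM), Hspa5 in fibroblast-like cells (1408 CPM), and Trib3, Asns and Chac1, on average, in melanoma cells.

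The label was also tested in the classes of lymphocytes with enough cells. In T cell-like cells, 7 members passed the filter on low counts, all but Trib3 and Chac1, and 0 were called by edgeR, beside 52 of 8619 genes, or 0.603%. Herpud1 came nearest, with 47.6 and 55.6 CPM in the libraries labelled shMib2, against 91.1 CPM in shCtrl (14 UMIs), a log2 fold change of -0.88 (95% interval -1.71 to -0.04, unadjusted p under 0.05, as for 9.24% of genes tested, adjusted p = 0.537 by edgeR). Ddit3 had 30.2 and 30.3 CPM, against 6.51 CPM from 1 UMI in shCtrl. In NK cell-like cells, 5 members passed, namely Hspa5, Ddit3, Atf4, Xbp1 and Herpud1, and 0 were called, beside 11 of 6337 genes, or 0.174%. Of the 5, 2 had an unadjusted p under 0.05, beside 7.45% of genes tested. They were Hspa5, with 546 and 540 CPM in the libraries labelled shMib2 against 353 CPM (29 UMIs) in shCtrl (log2 fold change 0.62, 95% interval 0.15 to 1.10, adjusted p = 0.552 by edgeR), and Atf4, with 223 and 257 CPM against 377 CPM (31 UMIs) (-0.63, -1.15 to -0.11, adjusted p = 0.643 by edgeR). The intervals are several times wider than in melanoma cells, so changes of the size tested there were not detectable in these classes.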

How the data were processed

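Per the labels, tumor cells were captured with a 10x Genomics V(D)J kit, and the authors aligned reads to mm10 with Cell Ranger 4.0.0 and deposited raw UMI counts per gene and barcode, with no normalization. The members and gene lists were chosen with earlier results of these data known. UMIs of melanoma cells, T cell-like and NK cell-like cells were summed per library (1 residual degree of freedom) and tested with edgeR 4.0.16 (TMM, filterByExpr, quasi-likelihood test, Benjamini-Hochberg adjustment over all genes tested), with DESeq2 1.42.0 as an alternative. The fits were tested on simulated data. The labels do not say that mice or cultures were independent beyond the pools, so p-values measure the spread between these libraries. Within a group, that spread is only the one between the 2 libraries labelled shMib2, whose hairpins differ. The quasi-likelihood fit also draws on the spread of the other genes tested. CPM are UMIs per 1000000 of the summed cells, with exact Poisson 95% intervals that cover counting error only, and a count of 0 is given with 3 counts as its limit.

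For classes, barcodes under 200 genes or over 20% mitochondrial UMIs were dropped. Predicted doublets (587, 424 and 622 barcodes in shMib2 replicate 1, shMib2 replicate 2 and shCtrl) were removed. Then 30 principal components of 2000 variable genes were clustered by leidenalg 0.10.2 at resolution 1. Members and pathway genes were barred from the variable genes, except Tyr, Tyrp1 and Mlana, which are also markers. Doublets were left in the melanoma gate in the main analysis. Free RNA in a class was estimated from its Dct and Pmel relative to melanoma cells. Genes named are the 9 members, Mib2, Dct and Pmel, up to 4 genes of each list with the lowest p and at least 5 CPM, the 5 genes most correlated with each member, and genes named to say what a list or cluster holds. Gene records were placed by GENCODE vM21 (GRCm38); the annotation version behind the count tables is not given in the sources used here. Per-gene sums were repeated under other gates, filters and cluster resolutions.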

Additional observations from a re-analysis of the deposited data

Results flagged for a closer look

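Atf4 in NK cell-like cells lay below the library labelled shCtrl in both libraries labelled shMib2, with ratios of 0.59 and 0.68 and a mean of 0.636, while in melanoma cells of the same libraries its ratios were 1.09 and 1.04. This opposite direction in the 2 cell classes is why it is listed here, and the difference between the classes was not tested. The NK cell-like value of shCtrl rests on 31 UMIs in 47 cells. The groups hold 2 libraries and 1 library, too few to single out a library within a group.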

How the results depend on the processing

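No paired analysis was possible because the library labelled shCtrl has no second replicate to pair. No member was called in melanoma, T cell-like or NK cell-like cells under any alternative run, DESeq2 included. The count over all genes moved more: from 260 in melanoma cells it became 686 with DESeq2, 0 without a filter on low counts, 155 with Dct and Pmel at 1% or more, and 42 with doublets and low-quality cells removed. In T cell-like cells, 52 became 6 (DESeq2), 92 (no filter), 116 (resolution 0.5), 24 (resolution 2) and 111 (doublets kept), and in NK cell-like cells 11 became 1 (DESeq2). Fold changes near 0 that turned sign were Trib3 (-0.0026 on the log2 scale, no filter), Chac1 (0.0106, Dct and Pmel at 1%) and Herpud1 (0.0085 and 0.0050, Dct and Pmel at 1% and doublets removed) in melanoma cells, and Herpud1 in NK cell-like cells (0.073, no filter). Leaving out either library labelled shMib2, which gives fold changes with no test, moved no member by more than its SE, but values near 0 turned sign for Trib3 in melanoma cells (-0.036) and Herpud1 in NK cell-like cells (0.15) without shMib2 replicate 1, and for Hspa5 (0.00028) and Herpud1 (0.0085) in melanoma cells without shMib2 replicate 2. Atf4 in NK cell-like cells stood at -0.41 without shMib2 replicate 1 and -0.68 without shMib2 replicate 2. Thinning cells to 5000 UMIs lowered the mean r to 0.23 for Trib3 with Chac1, 0.18 for Trib3 with Herpud1, 0.20 for Trib3 with Asns, 0.16 for Hspa5 with Xbp1 and 0.081 for Hspa5 with Herpud1, and Hspa5 with Trib3 stood at -0.014. Spearman's rho was 0.39 for Trib3 with Herpud1, 0.11 for Hspa5 with Herpud1 and -0.10 for Hspa5 with Trib3, which stood at -0.045 with at least 10000 UMIs per cell. Subtracting free RNA left Trib3 in T cell-like cells at -0.0013 of its melanoma level. With list levels taken without thinning, ratios of the highest over the lowest bin moved to 0.32 (Trib3) and 1.62 (Hspa5) for immediate early and heat shock genes, 1.10 (Chac1) for interferon response genes, 0.55 (Chac1) for mitosis genes, and 0.82 (Chac1) and 1.52 (Hspa5) for pigment genes. Depth limits the classes with few cells in shCtrl, of which phagocyte-like, plasmacytoid dendritic cell-like and fibroblast-like cells had 13, 10 and 25.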
